A study of Mus musculus with 2 samples.

Results

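The genes described here are those whose covered length differed between a library from wild-type and a library from Srsf10 knockout embryonic mouse hearts. Coverage is the percent that the authors listed for each gene. It is read here as the share of a gene's listed length that at least 1 uniquely mapped read touches. Its formula was not given, and the counts of covered bases below rest on this reading. A gene was eligible with at least 200 reads in each library and the same listed length in both tables, and it was taken when its coverage differed by at least 10 percentage points. The rule found 461 of 10943 eligible genes, which is 4.21%. Coverage was higher in the knockout for 230 of them (2.1%) and lower for 231 (2.11%). The choice used the measured coverage, so the members were selected on the same coverage values that are given below. The counts are a description with no test, and nothing is read from their shares.

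Total RNA was sequenced from embryonic mouse hearts (day 13.5 of gestation), 1 library from WT and 1 from SRSF10-/- embryos, all BALB/c. The labels do not say how many embryos each library pooled or how the null allele was made. Each genotype has a single library, so nothing here was checked against replicates. In whole hearts, fewer cells of a type and less RNA per cell cannot be told apart. Intervals given with read ratios are exact 95% intervals for counting error alone, since the reads carry no molecular identifiers and may repeat a molecule. Coverage has no such interval, because neighbouring bases share reads.

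The product of Srsf10 belongs to the SR family of splicing regulators and can act as an activator or a repressor of alternative exons. A change in exon use, in the transcription start or in the polyadenylation site alters which bases of a gene model are transcribed, and it can do so with no change in the gene's total reads. Read in this way, coverage registers a base as soon as a single read lands on it. It therefore reports how much of a gene model reads touched, not the amount of each part. It does not say which exons were gained or lost, or whether the reads came from that gene's own transcripts.

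Some of these genes have near-identical copies, and a read whose whole sequence occurs at 2 places in the genome does not map uniquely. Of the 456 genes found in the GENCODE M21 annotation (GRCm38), 4 were processed pseudogenes. In 40 (8.77%), 20% or more of the 31-base words of the longest transcript also occurred in transcripts of other genes. The other eligible genes had 0.106% pseudogenes and 6.53% with that much sharing. All 4 pseudogenes had lower coverage in the knockout. The sequences below show how little separates 2 of them from the coding gene that they resemble most. Each is the 90-base stretch, 1 read length, with the most differences inside the coding part, written 5′ to 3′, with the differing bases in capitals. Gm6180, a pseudogene of the cofilin 1 gene Cfl1, lies at chr8:42246911-42247408 on the plus strand, and the stretch is chr8:42247007-42247096. Rps3a2, a pseudogene of the ribosomal protein gene Rps3a1, lies at chr14:88123017-88123808 on the minus strand, and the stretch is chr14:88123141-88123230. Both positions are in the GRCm38 annotation, not in the mm9 build that the submitters' processing notes name.
Gm6180: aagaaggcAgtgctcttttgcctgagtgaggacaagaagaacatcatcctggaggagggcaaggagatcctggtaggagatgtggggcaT
Cfl1: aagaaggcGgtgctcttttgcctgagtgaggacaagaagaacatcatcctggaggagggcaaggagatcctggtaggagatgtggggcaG
Rps3a2: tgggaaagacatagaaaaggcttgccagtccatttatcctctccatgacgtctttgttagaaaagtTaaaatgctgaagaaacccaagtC
Rps3a1: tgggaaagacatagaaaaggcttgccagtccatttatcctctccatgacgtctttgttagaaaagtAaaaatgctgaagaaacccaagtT

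Gm6180 was 98.8% identical to Cfl1 over 498 aligned bases, and 31 of its 409 windows of 90 bases (7.58%) had no difference. Rps3a2 was 99.5% identical to Rps3a1 over 792 bases, and 410 of its 703 windows (58.3%) had none. The comparison was with the spliced transcript of the coding gene, so a window across its exon junctions may still be unique in the genome. Which reads were counted for the pseudogenes was not tested, and the values of both carry this limit. Gm6180 had 1531 reads over 72.6% of its 617 listed bases in the wild type and 2527 reads over 42.9% in the knockout, so more reads lay on fewer bases. Rps3a2 went from 560 reads and 66.9% to 431 reads and 48.2%. Gm10709, with 94.7% of its words shared, had the largest loss of all, from 85.5% to 50.7% of 483 bases at 660 and 475 reads, and Gm6139, with 86.5% shared, went from 88.3% to 71.3%.

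The libraries held 39.6 M uniquely mapped reads over 16988 genes (wild type) and 38.9 M over 17068 genes (knockout). All 8 heart muscle markers were high in both, from 109 to 6350 RPKM (reads per kilobase of listed length, scaled to library size) in the wild type and from 98.3 to 5799 RPKM in the knockout. Srsf10 itself fell outside the rule: its 5245 wild-type and 212 knockout reads covered 90.04% and 86.2%. Y-linked marker reads summed to 2943 (wild type) and 7 (knockout), so sex and genotype cannot be told apart in any value here. Macrophage marker reads summed to 3008 and 4025, and 5 adult and embryonic globin genes to 107887 and 75841. Hepatocyte marker reads summed to 276 and 40. Afp (145 and 4 reads), Alb (88 and 0), Apoa1 (19 and 2) and Serpina1a (2 and 0) were lower in the knockout. Ttr (22 and 34) was higher. The part of these differences in the coverage values was not tested.

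The chosen genes were incompletely covered in both hearts. Their median coverage was 77.8% (wild type) and 78.5% (knockout), against 97.4% and 97.1% for the other eligible genes. In 383 of the 461 neither library reached 95%. Reads spread evenly along the listed length would have covered at least 99% of it in both libraries for all but 17 of them. The rule itself favours such genes, because a gene covered almost whole in both libraries has little room to differ.

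**Figure D1:**
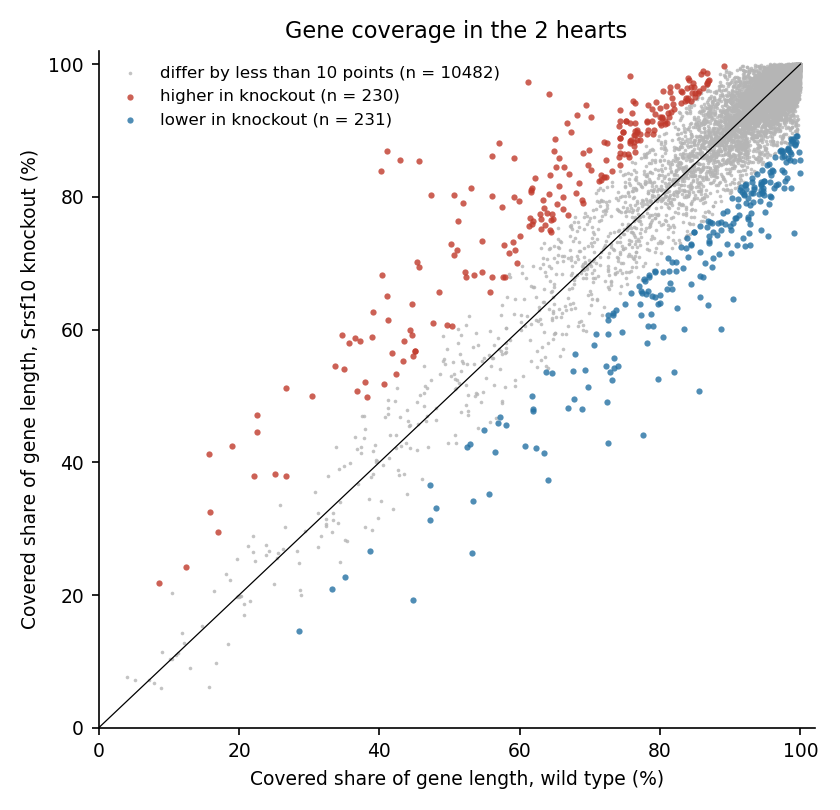
Coverage of each of the 10943 eligible genes in the wild-type library (x axis, %) against the knockout library (y axis, %), with 1 point per gene. Genes past 10 points are coloured by direction, and the line marks equal coverage. Most genes crowd the upper right corner, while the coloured genes are spread along the diagonal at lower coverage.

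The share of genes meeting the rule was smaller at greater depth. It was 7.2% of the 1860 genes whose lower read number was at least 200 and below 500, and 5.52% of the 2229 genes from 500 to below 1000. It was 3.34% from 1000 to below 2000 reads, 2.85% from 2000 to below 5000, and 2.47% of the 1374 genes with 5000 or more. By length, 8.45% of 485 genes under 1000 bases met it, 4.52% from 1000 to below 2000, 5.1% from 2000 to below 4000, and 2.58% of 4068 genes of 4000 bases or more, so the order by length was not steady. The listed length equalled the longest annotated transcript in 329 of 456 chosen genes (72.1%) and in 54.5% of the others. The median number of annotated transcripts was 6 among the chosen genes and 5 among the others, and 40.4% and 36.9% had exons overlapping those of another gene.

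Few reads were needed to make a difference of this size. All 467 listings of a gene with a single read in a library had 90 covered bases, so 1 counted read covered 90 bases. Divided by 90, the net difference in covered bases of a chosen gene needed at least 5 reads at the median, with quartiles of 3 and 7 and a highest value of 41. For 67 genes it needed 1 or 2 reads. Set against all reads of the gene in the library with the higher coverage, this fewest possible number equalled 0.496% at the median. It was less than 1% for 353 genes. How many reads in fact lay on the differing bases is not known. In 35 genes the difference was at least 900 bases, 26 of them higher in the knockout and 9 lower.

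**Figure D2:**
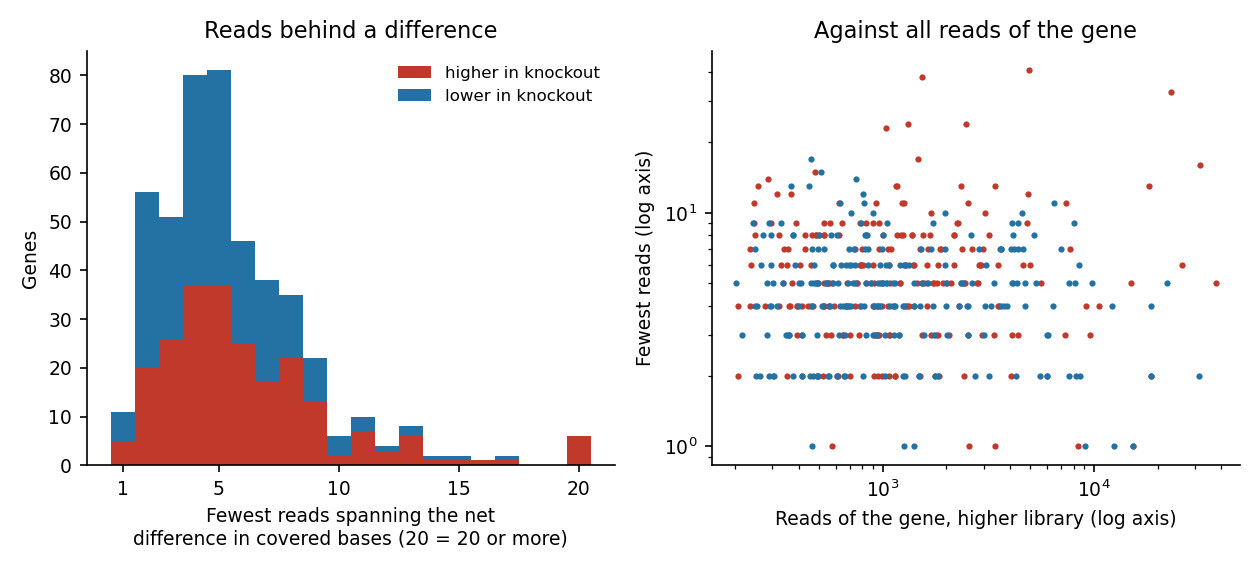
Left, the fewest 90-base reads that span each gene's net difference in covered bases (x axis, with 20 standing for 20 or more) against the number of genes. Right, the same number against all reads of the gene in the library where it had more reads, both on log axes, with 1 point per gene. Most genes lie between 2 and 8 reads, at low and at high read numbers alike.

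Read numbers moved by less than 1.2-fold in most of the chosen genes, though in a smaller share than among the other eligible genes. The median ratio of reads per library read, knockout over wild type, was 1.02 for the genes with higher coverage and 0.953 for those with lower coverage, and it was 0.991 over all eligible genes. Within 1.2-fold lay 324 of the 461 genes (70.3%), and 78.6% of the other eligible genes. At least 1.5-fold differences were seen in 24 genes, or 5.21%, where all eligible genes had 2.79%. Reads were at least 1.5-fold higher in 13 (1.37% of all eligible genes were) and at least 1.5-fold lower in 11 (1.42%). At least 2-fold differences were seen in 5 genes (0.32% of all eligible genes), 1 higher (0.119%) and 4 lower (0.201%). Of the genes with higher coverage 132 (57.4%) had a ratio above 1, and of those with lower coverage 144 (62.3%) had a ratio below 1. Over all eligible genes 47.3% were above 1 and 52.7% below.

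**Figure D3:**
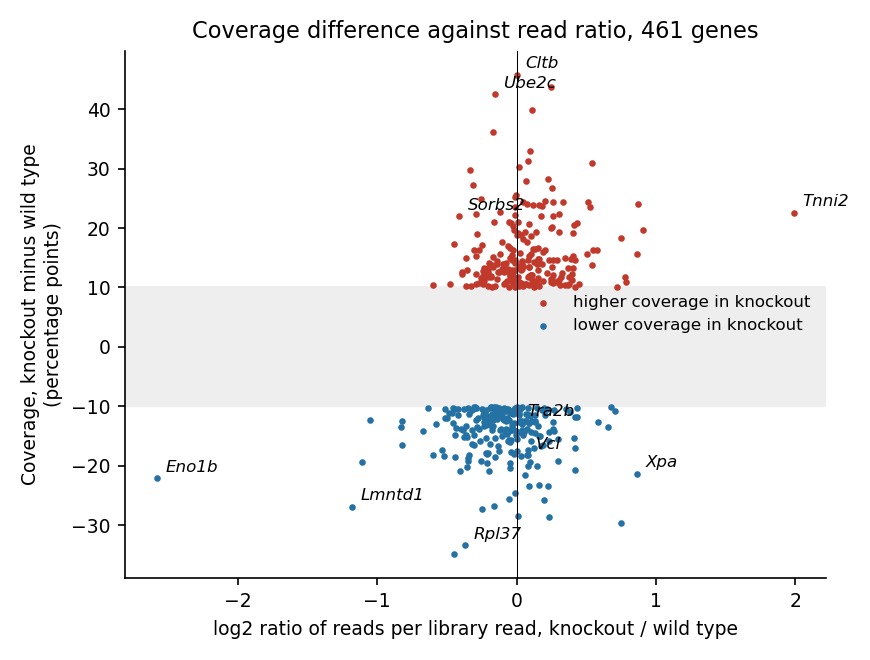
The log2 ratio of reads per library read (x axis, knockout over wild type) against the coverage difference in percentage points (y axis) for the 461 genes, with 1 point per gene and the excluded range shaded. Points of both directions crowd around a ratio of 0. Tnni2, at a log2 ratio of 1.99, and Eno1b, at -2.58, stand apart.

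The largest gain was in Cltb, the gene for clathrin light chain B of endocytic vesicle coats. Its 1464 reads covered 1304 of 3174 listed bases in the wild type (41.1%), and 1441 reads covered 2757 bases in the knockout (86.9%). The read ratio was 1.003 (0.932 to 1.08), so 1453 more bases were touched at a near-equal read number, and it takes at least 17 reads to span them. Mtg1, a GTPase that acts in mitochondrial ribosome assembly, had 532 reads over 40.2% and 620 reads over 83.8% of its length. Mmgt2, a membrane magnesium transporter, had 1105 reads over 45.6% and 1169 over 85.5%. In each of these 3 genes the knockout library touched more of the gene model at a read ratio within 1.2-fold. Exons of Mtg1 overlap those of another annotated gene. So do exons of other genes named below, among them Lztfl1, Ube2c, Capn6 and Sorbs2. Whether their added bases hold reads of the other gene was not tested. Ppa1, a cytosolic pyrophosphatase, stayed mostly uncovered in both libraries, with 2413 reads over 15.7% and 2360 over 41.2%. The most bases were gained by a gene without a symbol in the annotation (ENSMUSG00000019769), with 16508 of 28204 bases covered by 4497 reads and 20157 by 4910. Fat3, a giant cadherin, gained 3373 bases, from 76.1% at 929 reads to 94.4% at 1530, and Lztfl1, a regulator of ciliary trafficking, gained 2028 bases, from 57.1% at 722 reads to 88.1% at 1032. In these last genes reads were higher as well.

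Some genes of the cell cycle were among the 20 largest gains. Ube2c, the ubiquitin-conjugating enzyme of the anaphase-promoting complex, had 7389 reads over 942 of its 2191 listed bases in the wild type and 6520 reads over 1873 bases in the knockout. The annotation holds 2 Ube2c transcripts, of 967 and 2191 bases. Which of them the added bases belong to was not tested, and 11 reads, or 0.169% of its knockout reads, can span these bases. Anapc11, the catalytic RING subunit of the same complex, went from 61.2% to 97.3% of 3229 bases at 2349 and 2055 reads. Pclaf, a PCNA-binding factor of S phase, went from 50.6% to 80.3%. Outside those 20, Fzr1, the activator of the complex in G1, went from 81.3% to 96.6%. The opposite direction was seen in Anapc15 (77.0% and 66.5%) and Anapc4 (93.8% and 83.5%), both subunits of the complex. Of 10 eligible Anapc genes, 3 met the rule, which 4.21% of all eligible genes did. The other 7 had differences between -1.61 (Anapc7) and 8.17 points (Anapc10).

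Ccnd1, the G1 cyclin D1, covered 3584 of 3740 bases with 4363 reads in the wild type and 2989 bases with 4151 reads in the knockout. Cdkn3, a phosphatase of cyclin-dependent kinases, went from 95.7% to 80.05% of only 787 bases, a difference that 2 reads can span. The mitotic kinesin Kif20a went from 87.3% to 76.1%. The kinetochore genes Ska1 (70.2% and 84.0%) and Spc25 (81.3% and 92.0%) and the securin gene Pttg1 (86.6% and 97.0%) were higher in the knockout. Among 18 chosen genes with a known part in the cell cycle or replication, grouped after their values were seen, 9 were higher and 9 lower.

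Genes of RNA processing were split as evenly, with 10 higher and 9 lower among 19 grouped in the same way. Tra2b, an SR-like splicing activator that autoregulates its own transcript through a poison exon, was the one member of the SR protein list to meet the rule. It had 8150 reads over 93.2% of 3403 bases in the wild type and 8095 reads over 80.6% in the knockout. The read ratio was 1.01 (0.981 to 1.04), and 5 reads can span the 430 bases. Its paralog Tra2a went the other way and stayed outside the rule, with 91.8% and 99.05%. Srpk1, a kinase that phosphorylates SR proteins, had 3646 reads over 81.7% in the wild type and 2671 reads over 70.2% in the knockout, a read ratio of 0.746 (0.71 to 0.785).

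Of 13 SR protein genes, 12 were eligible and 11 stayed inside 10 points. Srsf4 came closest after Tra2a, at 75.6% and 68.7%. The list's median difference was -0.12 points, and that of all eligible genes -0.05. Among spliceosome genes, Snrnp40 of the U5 particle went from 65.5% to 85.8%, Prpf3 of the U4/U6 particle from 79.3% to 92.5%, and Prpf38a from 83.0% to 95.9%. Rnpc3, of the minor spliceosome and with 23.6% of its words shared, went from 62.8% to 77.4%. Lsm8 of the U6 particle (79.3% and 64.9%), the polyadenylation factor Fip1l1 (47.2% and 31.4%), the exosome subunit Exosc9 (69.7% and 51.3%) and the rRNA methyltransferase fibrillarin, Fbl (99.9% and 85.5%), were lower. None of 20 eligible hnRNP genes met the rule, which 4.21% of all eligible genes did. At that share a list this short may hold none.

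Published SRSF10 splicing targets did not meet it either. Trdn, the triadin of the calcium release unit, came closest of 4, at 93.9% and 97.6%, with 5590 and 6803 reads. Lpin1 was at 87.8% and 86.9%. Bclaf1 (99.6% and 99.4%) and Lrrfip1 (97.8% and 96.8%) were covered almost whole and differed by less than 1 point. An exon used less often but still touched by a read stays covered. These values therefore do not say whether splicing of the 4 targets changed. Of 12 sarcomere and calcium genes, 0 met the rule, and their differences lay between -0.5 and 3.68 points. Over all eligible genes 4.21% met it, so lists of 4 and 12 genes may hold none at that share. The sarcomere and calcium genes were already covered by more than 92% in both libraries. Ttn, the giant sarcomere spring, had 129073 and 159656 reads and went from 92.5% to 94.9% of its 106824 bases.

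Several other muscle genes did meet it. Sorbs2, an adaptor of Z-discs and intercalated discs with 36 annotated transcripts, had 31769 reads over 4168 of 6425 bases in the wild type. In the knockout, 23466 reads covered 5579 bases, so 1411 more bases were touched with fewer reads (ratio 0.752, 0.74 to 0.765). It takes at least 16 reads to span these bases, or 0.0682% of its knockout reads. Hspb7, the cardiovascular small heat shock protein, had 37598 reads over 75.1% and 29932 reads over 91.4%, and 5 reads can span that difference. Both genes thus had fewer reads and more covered bases in the knockout. Macf1, a cytoskeletal crosslinker, went from 84.7% to 97.1% of 23407 bases, a gain of 2900 bases at 18678 and 22990 reads.

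Vcl, the vinculin of costameres and adherens junctions, went the other way. It had 6206 reads over 4846 of 5229 bases in the wild type and 6439 reads over 3894 bases in the knockout. At a read ratio of 1.06 (1.02 to 1.09), 952 fewer bases were touched. The nuclear envelope gene Emd (emerin) went from 99.5% to 89.1%, Tead4, a transcription factor of the Hippo pathway, from 97.8% to 82.4% at 267 and 236 reads, and Dtnb, a dystrobrevin, from 56.5% to 41.5%. In this group of 12, chosen after the values were seen, 7 genes were higher and 5 lower.

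Tnni2, the fast skeletal troponin I, was the one chosen gene with at least 2-fold more reads in the knockout. It had 865 reads (24.4 RPKM) over 75.6% of 895 bases in the wild type and 3368 reads (96.8 RPKM) over 98.2% in the knockout, a ratio of 3.97 (3.68 to 4.28). Myh8, a perinatal skeletal myosin with 32.5% of its words shared, had 221 reads over 75.2% and 318 over 91.5%. Of the 5 skeletal muscle markers, whose summed RPKM was 137 and 188, Tnni2 alone met the rule, and the other 4 did not move one way. Ckm (5716 and 4133 reads) and Myod1 (18 and 2) were lower in the knockout, and Tnnt3 (151 and 309) and Mylpf (204 and 266) were higher. Below 0.5-fold lay 4 genes: Eno1b, Lmntd1, Fmc1 and Hbb-bs. Eno1b, an enolase copy with 88.5% of its words shared, had 9819 reads over 63.5% and 1612 reads over 41.4%. Lmntd1, a lamin tail domain gene, had 815 reads over 53.3% and 354 over 26.4%. Fmc1, an assembly factor of ATP synthase, had 1480 reads over 94.4% and 674 over 75%. In these genes coverage and reads moved together.

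Elsewhere they moved apart. Xpa, a nucleotide excision repair factor, had 371 reads over 95.4% of 1241 bases in the wild type and 663 reads over 74.1% in the knockout. Recql (58.1% and 45.6%), a DNA helicase, and Zcchc7 (47.2% and 36.5%), an exosome cofactor, also had more reads on fewer bases in the knockout. Among 7 chosen genes with a role in repair, grouped after their values were seen, 1 had higher coverage in the knockout and 6 lower. Over all chosen genes 231 of 461 were lower. Apex1, the abasic site endonuclease, went from 88.7% to 60.1% at 1495 and 1722 reads. Coverage and reads were both lower for Msh3 (61.9% and 47.7%, 991 and 611 reads). The same held for the uracil glycosylase Ung (98.5% and 86.8%, 1128 and 942 reads). Both were higher for Alkbh6, of the AlkB family (64.2% and 95.4%, 1038 and 1081 reads). They were also both higher for Mad2l2, which acts in translesion synthesis and mitosis (79.9% and 92.0%, 484 and 570 reads). Mad2l2 was not counted among the 7.

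**Figure D4:**
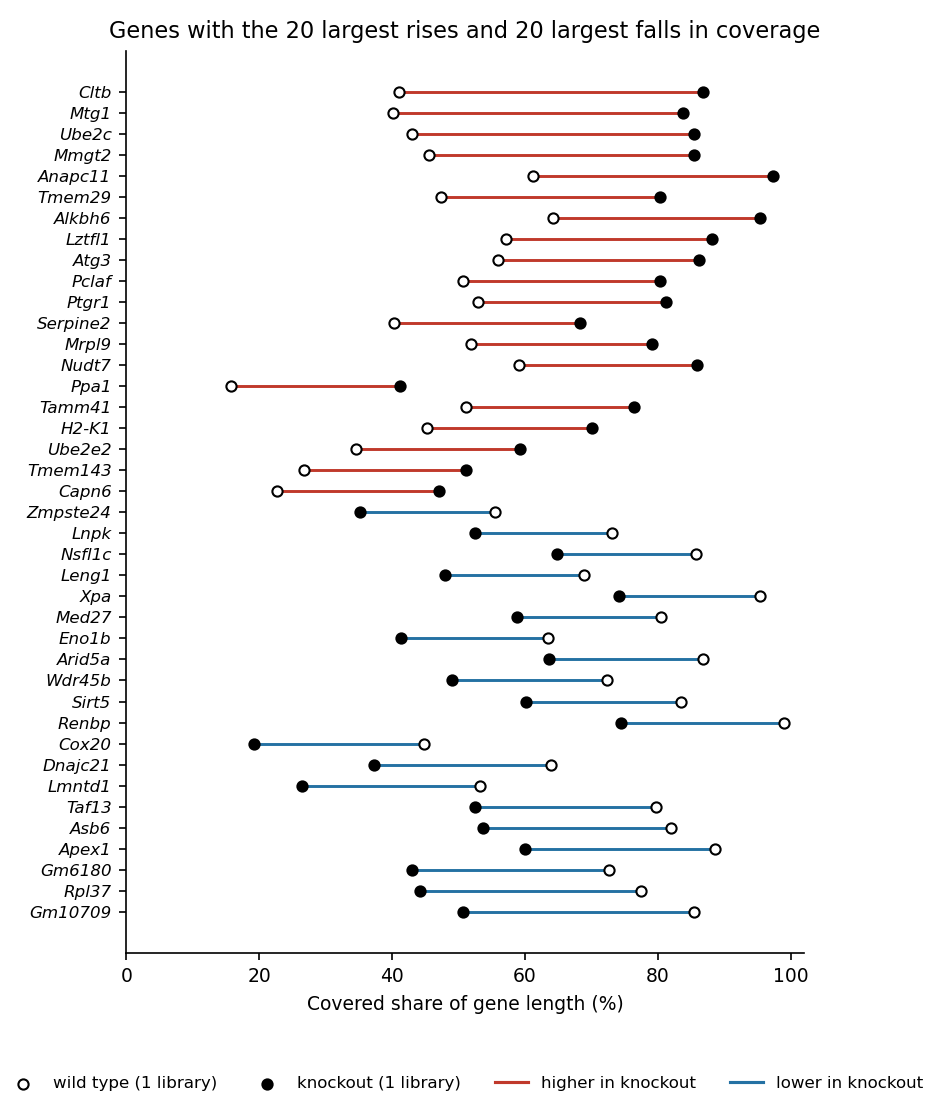
Coverage (x axis, % of listed length) of the named genes with the 20 largest rises and 20 largest falls, 1 line per gene from the wild-type library (open point) to the knockout library (filled point). The rises start between 15.7% and 64.2%, and the falls end between 19.2% and 74.5%.

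In most of the other large losses read numbers were close. Asb6, a SOCS-box adaptor, had 746 reads over 3401 of 4147 bases and 737 over 2225. Renbp, a renin-binding epimerase, had 970 reads over 99.1% and 946 over 74.5%. Taf13, a TFIID subunit, went from 79.7% to 52.5% at 567 and 468 reads. Dnajc21, a ribosome maturation cochaperone, went from 64.0% to 37.3%, and Wdr45b, an autophagy protein that binds phosphoinositides, from 72.4% to 49.1% at 2734 and 2854 reads. Sirt5, a mitochondrial desuccinylase, had 351 reads over 83.5% and 403 over 60.1%. Med27, a Mediator subunit, had 711 reads over 80.4% and 727 over 58.8%, and Arid5a, an RNA-binding regulator of cytokine transcripts, lost 1275 of its covered bases at 465 and 511 reads. Becn1, the core autophagy gene, went from 72.8% to 53.6%, whereas the autophagy conjugation genes Atg3 (56.0% and 86.2%) and Atg16l1 (72.2% and 85.6%) were higher. Capn6, a calpain-like protein without protease activity, had 14689 reads over 1027 of 4539 bases and 18156 reads over 2136 bases. That difference can be spanned by 13 reads.

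Genes of the matrix and of secreted factors were found in both directions. Fbln1, the basement membrane protein fibulin 1 with known C-terminal splice forms, had 7007 reads over 92.5% and 6598 over 76.7%. Ptn, the growth factor pleiotrophin, went from 82.4% to 63.2%, Angptl2 from 98.7% to 81.3% and the metalloproteinase inhibitor Timp3 from 89.0% to 77.5%. Dcn, the proteoglycan decorin, had 6053 reads over 96.3% and 3833 over 86.0%. Col25a1, a transmembrane collagen, covered 5789 bases and 4690 bases. It was the 1 of 31 eligible collagen genes to meet the rule (3.23%, and 4.21% of all eligible genes). Serpine2, a protease inhibitor, went the other way, from 40.3% to 68.3% at 3094 and 3190 reads. So did the matrix protein gene Matn4 (63.3% and 79.5%), the secreted protease gene Prss23 (75.6% and 88.4%) and Pappa, a protease of insulin-like growth factor binding proteins (74.8% and 86.5%). Of 12 such genes, grouped after their values were seen, 4 were higher and 8 lower, and over all chosen genes 231 of 461 were lower.

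Families of short gene models differed in how often they met the rule, which 4.21% of all eligible genes did. Complex I subunits, with a median listed length of 971 bases, met it in 2 of 37 genes (5.41%), and proteasome subunits, with 1516.5 bases, in 1 of 36 (2.78%). It was met by 11 of 78 cytosolic ribosomal protein genes (14.1%), 4 higher and 7 lower. Rpl37 had the largest difference of them, with 18637 reads over 672 of 867 bases in the wild type and 14194 reads over 383 bases in the knockout. Its missing 289 bases can be spanned by 4 reads, or 0.0215% of its wild-type reads, and 30.4% of its words are shared. Rpl38, with 42.9% of its words shared, went from 76.4% to 94.1% of 457 bases. Rps21, with 35.3% shared, went from 91.1% to 79.6% of 481. These differences of 81 and 55 bases are shorter than 1 read. The median listed length of the family was 940.5 bases, and that of all eligible genes 3340. Rps3 (64.2% and 80.5% of 3183 bases) and Rpl18 (88.1% and 74.2% of 2987) were long models among them.

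Of 75 mitochondrial ribosomal protein genes 10 met the rule, 8 higher and 2 lower. Mrpl9 had 1392 reads over 51.9% and 1099 over 79.1%. Mrps33, with 24.1% of its words shared, had 2491 reads over 66.7% and 2938 over 91.1%. Mrpl12 went from 82.4% to 96.7% at 9543 and 9318 reads. Mrpl19 (78.0% and 65.4%) and Mrps25 (56.8% and 45.9%) were the 2 lower genes. All 5 of the 23 complex IV genes that met it were lower: Cox20, Cox7a2, Cox19, Cox7c and Cox6a1. Cox20, an assembly factor, had 1246 reads over 300 of 670 bases and 1177 over 129, and 2 reads can span the difference. Cox6a1 and Cox7c each lost less than 1 read length of covered bases, 69 and 80 bases, from 15211 and 12481 reads. Cox7c has 29.9% of its words shared. Among 17 ATP synthase genes, Atp5o (74.2% and 93.1%) and Atp5f1 (76.5% and 91.2%) were higher and Atp5j2 (67.7% and 49.5%) lower.

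**Figure D5:**
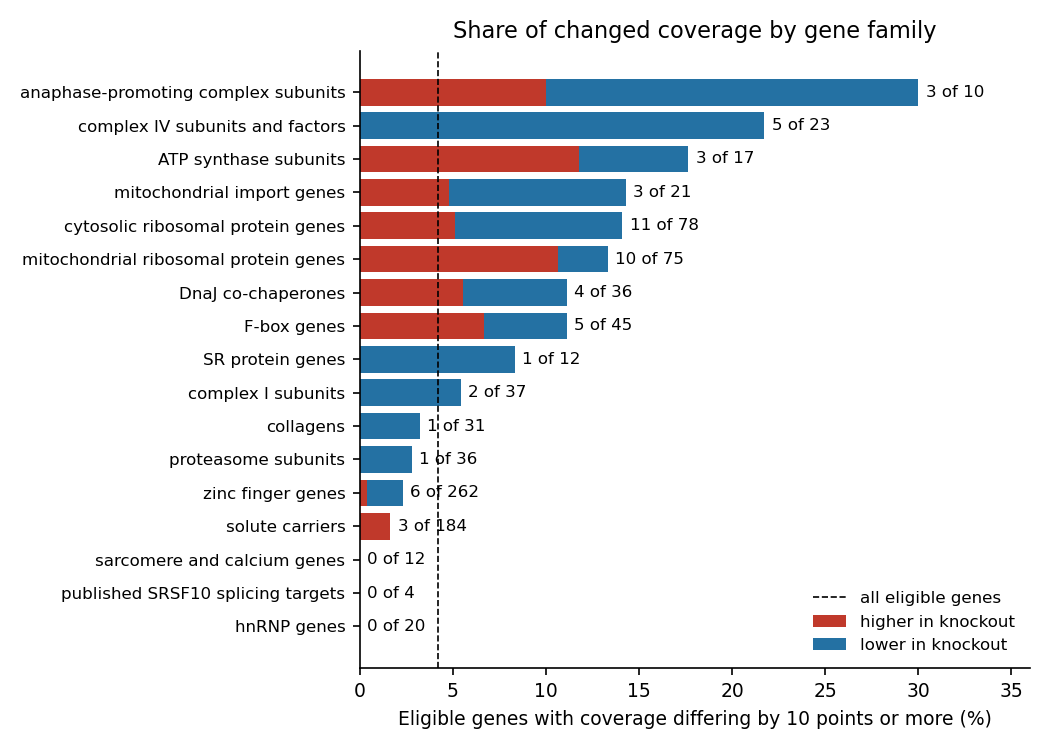
Share of the eligible genes of each family or list (x axis, %) whose coverage was higher (red) or lower (blue) in the knockout by at least 10 points, with the number of genes beside each bar. The dashed line marks the 4.21% of all eligible genes. Ribosomal, complex IV and anaphase-promoting complex genes lie above it, and sarcomere, hnRNP and solute carrier genes below it. Several bars rest on few genes, as the numbers show.

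Families of longer models differed as well. The rule was met by 5 of 45 F-box genes (11.1%, median listed length 3698 bases) and by 4 of 36 DnaJ co-chaperones (11.1%, 2960.5 bases). It was met by 6 of 262 zinc finger genes (2.29%, 3597 bases), 1 higher and 5 lower, and by 3 of 184 solute carriers (1.63%, 3574.5 bases), all higher. The adult globin genes Hbb-bs and Hba-a2, with 66.9% and 91.03% of their words shared, went from 93.4% to 81.1% and from 78.7% to 62.3%, and each difference can be spanned by 2 reads. Gapdh, the glycolytic enzyme with many pseudogenes and 30.7% of its words shared, went from 69.3% to 53.9% at 4982 and 6002 reads. The class I histocompatibility gene H2-K1, with 22.4% of its words shared, went from 45.3% to 70.1%.

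At the threshold, Gm17555, B3galt1 and Fto lay just inside at 10, 10.03 and 10.07 points higher, and Cd55, Nexmif and Nfkbil1 just outside at 9.96, 9.96 and 9.95. Gm17555 has 57.6% of its words shared. On the lower side, Nckap1l, Tomm40l and Abcc4 lay inside at -10.03, -10.03 and -10.04, and Mrpl13, Nufip1 and Ogfod2 outside at -9.97, -9.97 and -9.96. Chromosome 4, which carries Srsf10, held 28 of the chosen genes (6.14%) and 6.4% of the other eligible genes. Of the 461 genes, 5 had no symbol in the annotation used. Across the genes with higher coverage the median difference was 13.6 points with quartiles of 11.7 and 18.6, and across those with lower coverage it was -13.1 points with quartiles of -16.1 and -11.2.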

How the data were processed

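Each library came with its own gene table. The authors' deposited counts give the uniquely mapped reads of every gene, and they sum to the totals that the headers state. The authors also deposited RPKM and a coverage percent per gene, and the knockout column lists 1 gene at 100.06%, so its coverage was handled as a score without an upper limit. Bowtie 0.12.2 and mm9 are named in the submitters' processing notes, while the gene annotation, filtering and strand setting were not stated there. Reads of genes that overlap or lie antisense may therefore be mixed.

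Genes were joined on Ensembl identifier, and 16410 were in both tables. Symbols, biotypes, transcripts and shared 31-base words came from GENCODE M21 (GRCm38), matched on identifier for 10858 of the 10943 eligible genes. The word count is also raised where 2 annotated genes overlap. Read ratios are reads per library read with exact conditional binomial (Clopper-Pearson) 95% intervals. The even-spread coverage is 1 minus the chance that no 90-base read falls on a base. The code for the rule was tested on simulated data with known changes, which says nothing of the spread between hearts. No test across genes was run, since each genotype has a single library.

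The genes and lists were chosen with earlier results of these data known. Names follow a rule: the 20 largest differences in each direction, members of the SR protein, splicing target and sarcomere lists, and 3 genes on either side of the threshold. All other names, the role groups and the symbol families were chosen after their values were seen. Alternatives changed the read minimum, the coverage threshold, the handling of copies, pseudogenes and listed length, and the scaling. Computations used Python 3.11.15 with scipy 1.17.1.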

Additional observations from a re-analysis of the deposited data

How the results depend on the processing

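The counts of 230 higher and 231 lower genes followed the threshold: 689 and 746 at 5 points, and 87 and 72 at 15 points. Alternatives chosen after seeing the data also moved them: 26 and 9 genes differed by at least 900 covered bases, and 138 and 139 remained without genes whose exons overlap another gene's. A read minimum of 100 gave 325 and 321, one of 500 gave 172 and 155, leaving out near-identical copies gave 214 and 207, and coverage taken relative to genes of similar reads per kilobase gave 237 and 211. These, and leaving out pseudogenes, keeping genes of unequal listed length or keeping genes whose reads differed by less than 1.5-fold, stayed within 1.5 times. The median log2 read ratio, 0.04 for higher and -0.07 for lower genes, kept its sign under each pseudocount, scaling and copy setting tried. No replicate could be left out. No paired analysis was possible because each group has 1 library.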
